A study of Canis lupus familiaris with 10 samples.

Results

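Transcripts of 10 genes of the G1 phase and of entry into the cell cycle were followed through a calcium switch in MDCK, an epithelial cell line of canine kidney origin. The genes were CCND1, CCND3, CDK4, CDK6, CCNE1, CCNE2, CDC25A, E2F1, CDKN1B and MYC. They were found as the probe sets annotated to exactly 1 of these symbols, and the probe set with the highest mean would have stood for a gene with several. Each symbol had 1 probe set, so all 10 of 10 members were found among 15947 genes with a symbol, and all 10 were among the 10498 genes that passed the signal filter.

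The human BLT2 overexpression-MDCK line carries a cell surface receptor for the lipid 12-HHT, and the Mock-MDCK line is its control. Each line was sampled at 5 steps: at 0 h in DMEM with 10% FCS, after 2 h and after 18 h in the calcium-free medium SMEM, after 2 h back in high-calcium DMEM that followed the 18 h, and after the same return with 200 nM 12-HHT. Every line and step had 1 array, hybridised with RNA mixed from 3 preparations. Medium changed together with calcium, and the labels give no serum content after 0 h. Effects of calcium, medium and serum cannot be told apart. The labels do not say whether a line is 1 clone or a pool, and BLT2 cannot be told apart from other differences between the lines. LTB4R2, which encodes BLT2, had no probe set under its symbol here, and its level was not analysed. In cultured cells, less RNA per cell and fewer cells with a transcript cannot be told apart.

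Cells decide in G1 whether to divide. Mitogen signals raise MYC and the D-type cyclins, which bind CDK4 or CDK6 and start to phosphorylate the RB family. RB then releases E2F factors, which switch on the E-type cyclins and the genes of DNA synthesis, while CDC25 phosphatases remove inhibitory phosphates from CDKs and inhibitors such as p27, the product of CDKN1B, hold the kinases back. Confluent epithelium usually rests in G1, and loss of cell contact can bring it back into the cycle.

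Of 12 markers of kidney epithelium 11, CDH1 and EPCAM among them, lay above the filter level of 7.21 on all arrays. The other, CDH16, did not pass the signal filter. Of 8 fibroblast markers 6 were below it on every array, and COL1A1 was above it on all. Of 6 endothelial markers 5 were below it on every array, as were 4 of 6 leukocyte markers with a probe set. Array medians lay between 7.16 and 7.27 on the log2 scale. Each array correlated with the rest at a mean of 0.975 (BLT2, 2 h) to 0.987. All signals below are log2 values, and all changes are differences of log2 values.

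Early changes were seen in a pair of members. CDC25A, whose product activates CDK2 at the start of S phase, fell to 7.52 in BLT2 and 8.25 in Mock cells after 2 h without calcium, against 9.62 in BLT2 and 9.57 in Mock cells at 0 h. CCND1, which encodes cyclin D1, fell to 9.97 in BLT2 and 10.08 in Mock cells, against 11.13 in BLT2 and 10.82 in Mock cells. The values at 2 h did not overlap those at 0 h for either gene. Fitted over both lines, the change was -1.71 ± 0.18 for CDC25A, or 3.28-fold lower, and -0.95 ± 0.13 for CCND1, or 1.93-fold lower (SE, 2 arrays per step, limma adjusted p = 0.00475 and 0.0133). These were 2 of 10 members lower and 0 higher, where 4.62% of all tested genes were called, 1.98% lower and 2.64% higher. Leaving out either 0 h array or the BLT2 array of 2 h ended the call for CCND1 (adjusted p up to 0.146), and leaving out the BLT2 array of 0 h ended it for CDC25A (0.0565).

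The other 8 members had changes between -0.39 and 0.32 at 2 h and did not pass the test (limma adjusted p of at least 0.0873). CCNE1, which encodes cyclin E1, a partner of CDK2, was at -0.52 in BLT2 and -0.27 in Mock cells (adjusted p = 0.0873). MYC differed in sign between the lines, with -0.30 in BLT2 and 0.25 in Mock cells. CDKN1B was at 0.27 in BLT2 and 0.36 in Mock cells.

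**Figure D1:**
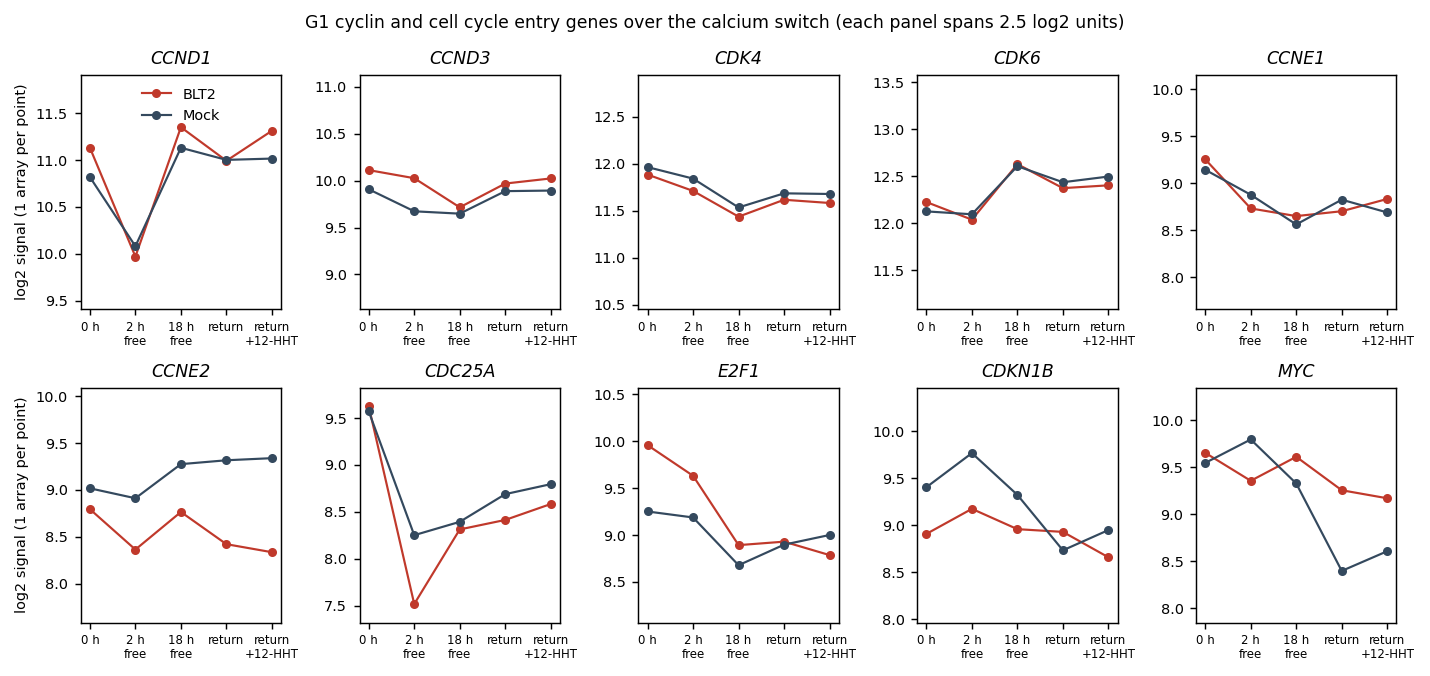
Log2 signal (vertical axis, each panel spanning 2.5 log2 units) of the 10 genes at 5 steps of the calcium switch (horizontal axis), in BLT2 (red) and Mock (dark) cells, 1 array per point. CCND1 dips at 2 h and is back by 18 h in both lines, and CDC25A stays below its 0 h level. CCNE2 and MYC each show their widest gap between the lines after calcium return.

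The D-type cyclins and their kinases took different courses over the whole switch. In BLT2 cells CCND1 stood at 11.13 at 0 h, 9.97 at 2 h, 11.35 at 18 h, 10.99 after calcium return and 11.31 after return with 12-HHT. In Mock cells it stood at 10.82, 10.08, 11.13, 11.002 and 11.02 in the same order. The low point at 2 h lay apart from every other step in both lines. From 2 h to 18 h without calcium, CCND1 rose by 1.21 ± 0.13 (limma adjusted p = 0.00453), which depended on the BLT2 array of 18 h (0.0700 without it). Against 0 h, the 18 h level was at 0.27 ± 0.13 (adjusted p = 0.174) and the level after return at 0.02 ± 0.13 (adjusted p = 0.927).

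CCND3, which encodes cyclin D3, varied least of the members over the 10 arrays. In BLT2 cells it read 10.11 at 0 h, 10.03 at 2 h, 9.72 at 18 h, 9.97 after return and 10.02 with 12-HHT. In Mock cells it read 9.91, 9.67, 9.65, 9.89 and 9.89. The values of neighbouring steps overlapped throughout the order of their means, and 18 h against 0 h was at -0.33 ± 0.10 (limma adjusted p = 0.0541).

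CDK4 and CDK6 encode the 2 kinases that the D-type cyclins activate, and they went opposite ways. CDK4 fell to 11.44 in BLT2 and 11.53 in Mock cells after 18 h without calcium, against 11.88 in BLT2 and 11.96 in Mock cells at 0 h, a change of -0.44 ± 0.09 (SE, limma adjusted p = 0.0109). CDK6 rose to 12.63 in BLT2 and 12.61 in Mock cells at 18 h, against 12.23 in BLT2 and 12.13 in Mock cells at 0 h, a change of 0.44 ± 0.09 (adjusted p = 0.0144). For both genes the 18 h values lay outside those of 0 h and of 2 h in both lines. Neither call held when any array of 0 h or 18 h was left out (adjusted p up to 0.0919 for CDK4 and 0.127 for CDK6). The size changed little, at -0.45 to -0.43 for CDK4 and 0.37 to 0.52 for CDK6 over the fits that left out 1 array.

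Most of the CDK4 and CDK6 change came after the first 2 h. At 2 h CDK4 read 11.71 in BLT2 and 11.84 in Mock cells, and CDK6 read 12.04 in BLT2 and 12.10 in Mock cells. Between 2 h and 18 h, CDK6 rose by 0.55 ± 0.09 (limma adjusted p = 0.0100), lost without the Mock or the BLT2 18 h array (adjusted p up to 0.108). CDK4 was at -0.29 ± 0.09 (adjusted p = 0.0485), a call that no fit with 1 array left out kept (adjusted p = 0.0732 to 0.254). In this comparison 2 of 10 members rose and 1 fell, where 14.3% of all tested genes were higher and 8.33% lower.

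Among genes of the next stage, at the border of S phase, CCNE1 fell to 8.65 in BLT2 and 8.56 in Mock cells after 18 h without calcium, against 9.26 in BLT2 and 9.14 in Mock cells at 0 h. The change was -0.59 ± 0.11 (SE, limma adjusted p = 0.00922), nearly equal in BLT2 (-0.60) and Mock cells (-0.58). After 2 h it read 8.73 in BLT2 and 8.88 in Mock cells. The call for CCNE1 was likewise lost when any array of 0 h or 18 h was left out (adjusted p up to 0.0760), with changes of -0.65 to -0.53.

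E2F1, an activator of the genes of DNA synthesis that RB restrains, fell at 18 h to 8.89 in BLT2 and 8.68 in Mock cells, against 9.96 in BLT2 and 9.25 in Mock cells at 0 h. The change was -0.82 ± 0.20 (limma adjusted p = 0.0246), made up of -1.06 in BLT2 and -0.57 in Mock cells. Leaving out either 18 h array or the BLT2 array of 0 h ended the call (adjusted p up to 0.157). At 2 h the gene still read 9.63 in BLT2 and 9.19 in Mock cells.

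CDC25A read 8.31 in BLT2 and 8.39 in Mock cells at 18 h, above its 2 h level and below its 0 h level in both lines. Against 0 h the change was -1.24 ± 0.18, or 2.37-fold lower (limma adjusted p = 0.00368). This call held in each of the 10 fits that left out 1 array (changes of -1.43 to -1.05). Only the fits without an array of 0 h or 18 h could alter the size of this change. The other fits could alter only its error. CDC25A ranked 429 among the 10498 tested genes by p-value at 18 h and 38 at 2 h.

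In all, 4 of 10 members fell at 18 h and 1 rose, where 27.2% of all tested genes were called, 12.2% lower and 15.0% higher. The median change of the members was -0.23, beside 0.02 over all tested genes. Comparisons with 0 h share the same 0 h arrays, so they are not independent. The other 5 members, CCND1, CCND3, CCNE2, CDKN1B and MYC, lay between -0.33 and 0.27 (limma adjusted p of at least 0.0541).

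**Figure D2:**
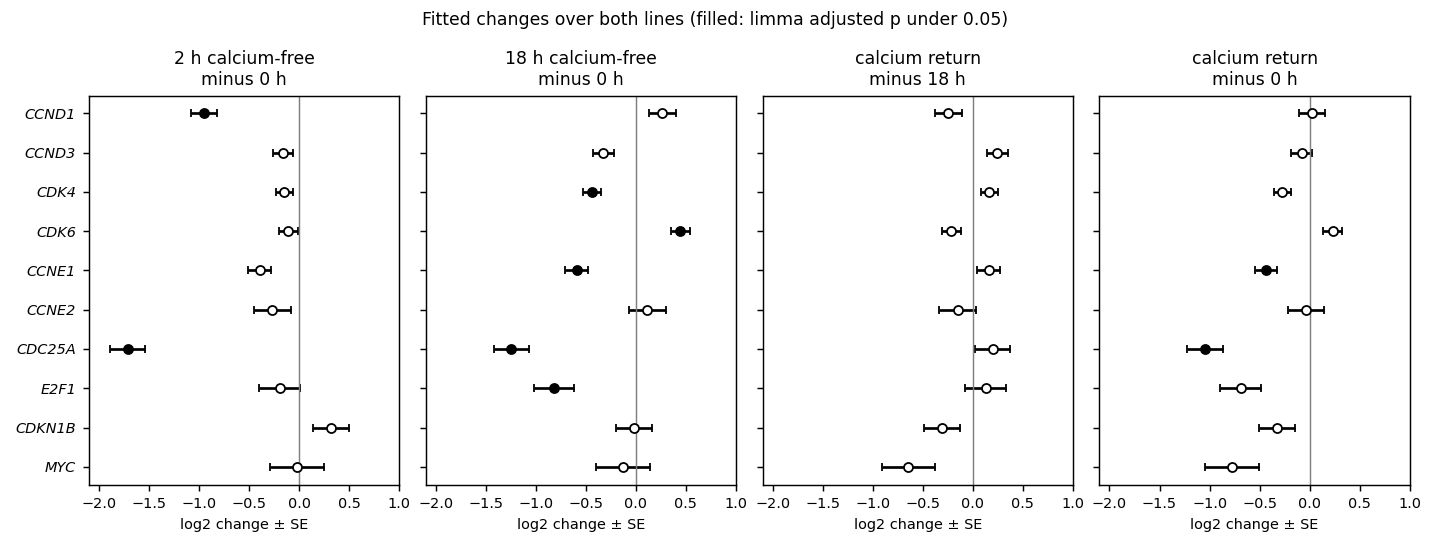
Fitted log2 change ± SE over both lines (horizontal axis) for each gene (rows) in 4 step comparisons, filled where limma's adjusted p was under 0.05. At 2 h CDC25A and CCND1 are filled, at 18 h CDC25A, E2F1, CCNE1 and CDK4 are lower and CDK6 higher, and no gene is filled for calcium return against 18 h.

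Return of calcium for 2 h gave no call among the members against 18 h. All 10 had changes between -0.64 and 0.25 (limma adjusted p of at least 0.249), 2 of them with an unadjusted p under 0.05, where 3.34% of all tested genes were called, 0.772% higher and 2.57% lower. The lowest value belonged to MYC, a transcription factor of growth and cell cycle entry, at -0.64 ± 0.27 (adjusted p = 0.249). MYC read 9.26 in BLT2 and 8.40 in Mock cells after return, against 9.61 in BLT2 and 9.33 in Mock cells at 18 h. CCND3 was at 0.25 ± 0.10 (adjusted p = 0.256), with 0.25 in BLT2 and 0.24 in Mock cells.

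After the return, CDC25A was still 2.06-fold lower than at 0 h, at 8.41 in BLT2 and 8.69 in Mock cells, a change of -1.05 ± 0.18 (limma adjusted p = 0.0119). That call was lost when either return array or the BLT2 array of 0 h was left out (adjusted p up to 0.108). CCNE1 was at -0.44 ± 0.11 (adjusted p = 0.0401). With 1 array left out, its call was kept only without either 2 h array, which cannot alter the size of this change. Thus 2 of 10 members were lower than at 0 h and 0 higher, where 7.29% of all tested genes were lower and 7.75% higher. E2F1 at -0.69 ± 0.20 (adjusted p = 0.0611), CDK4 at -0.27 ± 0.09 (0.0744) and MYC at -0.77 ± 0.27 (0.0952) did not pass.

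12-HHT moved no member by as much as 1.5-fold in either line, where 0.448% of all tested genes did so in BLT2 cells (0.333% higher, 0.114% lower) and 0.152% in Mock cells (0.105% higher, 0.0476% lower). With 1 array against 1 array per line these differences carry no test. In BLT2 cells they ran from -0.27 to 0.32 and in Mock cells from -0.14 to 0.22. The highest was CCND1 in BLT2 cells, at 11.31 with 12-HHT against 10.99 without it, and in Mock cells CCND1 read 11.02 with 12-HHT against 11.002 without it. The lowest was CDKN1B in BLT2 cells, at 8.66 with 12-HHT against 8.93 without it, and in Mock cells CDKN1B read 8.95 with 12-HHT against 8.73 without it. Fitted over both lines, 0 of the 10 members and 0 of all tested genes were called by limma, and 0 members had an unadjusted p under 0.05.

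In the comparison of the lines 1 member passed the test. CCNE2 encodes cyclin E2, the second E-type partner of CDK2. In BLT2 cells it read 8.80 at 0 h, 8.37 at 2 h, 8.77 at 18 h, 8.42 after return and 8.34 with 12-HHT. In Mock cells it read 9.02, 8.91, 9.28, 9.32 and 9.34, so every BLT2 value lay below every Mock value. The fitted difference of BLT2 minus Mock was -0.63 ± 0.12 (SE, 5 arrays per line, limma adjusted p = 0.0140). It was called in all 10 fits that left out 1 array (-0.74 to -0.54, adjusted p up to 0.0452). Leaving out either array of a step gives the same fit of this difference, so these fits are 1 for each of the 5 steps. CCNE2 was thus 1 of 10 members lower in BLT2 cells, with 0 higher, where 8.13% of all tested genes were lower and 7.82% higher. By contrast CCNE1 differed between the lines by 0.02 ± 0.07 (adjusted p = 0.904).

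The gap in CCNE2 was -0.22 at 0 h, -0.55 at 2 h, -0.51 at 18 h, -0.89 after return and -1.002 with 12-HHT. The mean gap at the 2 steps after calcium return minus the mean at the 3 steps before it was -0.52 ± 0.13 (limma on the BLT2 minus Mock differences, adjusted p = 0.0473). For this contrast 1 of 10 members was lower and 0 higher, where 2.84% of all tested genes were lower and 8.50% higher. The call was lost when any array of the 0 h, 18 h, return or 12-HHT steps was left out (adjusted p up to 0.218), with values of -0.58 to -0.42. Over both lines CCNE2 was between -0.27 and 0.38 in the 5 step comparisons without 12-HHT, and none passed.

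**Figure D3:**
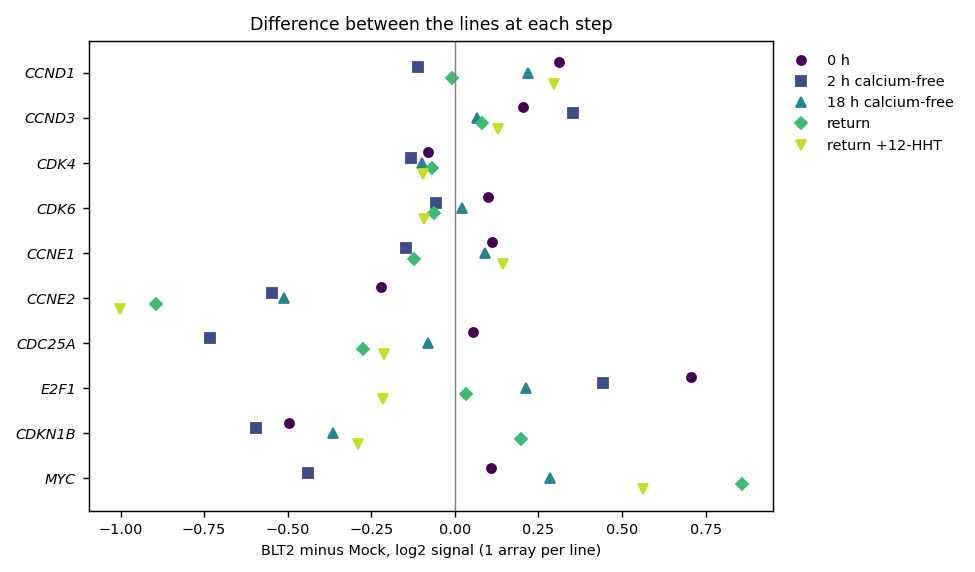
BLT2 minus Mock difference in log2 signal (horizontal axis) for each gene (rows) at 5 steps (marker shape and colour), 1 array per line at each point. CCNE2 is below 0 at every step and lowest after calcium return, E2F1 runs from 0.71 at 0 h to -0.21 with 12-HHT, and MYC is highest after return at 0.86.

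MYC, E2F1 and CDKN1B showed gaps between the lines that varied with the step without passing the test. MYC in BLT2 cells read 9.65, 9.36, 9.61, 9.26 and 9.17 from 0 h to return with 12-HHT, and in Mock cells 9.55, 9.80, 9.33, 8.40 and 8.61. The BLT2 and Mock values lay farthest apart after return, with 0.86 without and 0.56 with 12-HHT. The change in the gap was 0.73 ± 0.22 (limma adjusted p = 0.0738), and 0.52 with an adjusted p of 0.0460 without either 2 h array.

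E2F1 in BLT2 cells read 9.96, 9.63, 8.89, 8.93 and 8.79 in the same order, and in Mock cells 9.25, 9.19, 8.68, 8.90 and 9.0004. BLT2 was the higher line by 0.71 at 0 h and the lower line by 0.21 after return with 12-HHT. The change in the gap was -0.55 ± 0.16 (limma adjusted p = 0.0738), and -0.67 with an adjusted p of 0.0451 without either 18 h array.

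CDKN1B encodes p27, an inhibitor of cyclin E and CDK2 that is high in resting cells. It read 8.91, 9.17, 8.96, 8.93 and 8.66 in BLT2 cells, and 9.40, 9.77, 9.32, 8.73 and 8.95 in Mock cells. BLT2 was the lower line at 4 of the 5 steps, all but the return without 12-HHT. The mean difference of the lines was -0.31 ± 0.11 (limma adjusted p = 0.103), and -0.44 with an adjusted p of 0.0233 without either return array. The change in the gap was 0.44 ± 0.16 (adjusted p = 0.118).

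The remaining 6 members differed between the lines by -0.25 to 0.17 in the fit, with CDC25A at -0.25 ± 0.11 and CCND3 at 0.17 ± 0.07 (limma adjusted p = 0.162 and 0.123). CCND3 was higher in BLT2 cells and CDK4 lower at all 5 steps, with CDK4 differences of -0.13 to -0.07. The gap of CDC25A was -0.73 at 2 h and between -0.27 and 0.05 at the other steps.

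Genes whose log2 signals followed a member most closely over the 10 arrays were picked by Pearson's r, as a description across arrays that share lines and steps. CCND1 ran closest to CLOCK, PHF13 and FXR2 (r = 0.97 to 0.99). CDC25A ran closest to RSL1D1, GEMIN5 and LOC491231 (0.97 each), and CDK4 to SHMT1, BRI3BP and NPM3 (0.98 to 0.99). E2F1 ran closest to MYBL2, TTYH2 and TPI1 (0.95 to 0.97), CCNE1 to AP1AR, UCK2 and RRP7 (0.96 to 0.97) and CCNE2 to RCL1, SFSWAP and KCTD3 (0.98 to 0.99). CDK6 ran closest to FAM160B1, USP31 and RAMAC (0.99 each), CDKN1B to KDM5A, MYO9A and ACVR2A (0.96 to 0.98), MYC to GFOD2, BBS7 and WASHC4 (0.96 each), and CCND3 to GPR39, GNB1L and OAS3 (0.92 to 0.96).

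In a list of other partners and inhibitors of G1 CDKs, 3 of 19 tested genes rose and 4 fell after 18 h without calcium. The median was 0.06 (0.0038 to 0.081 with 1 array left out) beside 0.02 over all tested genes. The list also holds the phosphatases CDC25B and CDC25C, which are neither partners nor inhibitors, and both were among the 4 that fell. Over all tested genes 15.0% were higher and 12.2% lower, so the higher count was near that share. Without the BLT2 array of 18 h, 0 were higher and 1 lower. CDKN1A, which encodes the CDK inhibitor p21, read 12.74 in BLT2 and 12.45 in Mock cells at 18 h, against 10.54 in BLT2 and 10.07 in Mock cells at 0 h. Its change was 2.29 ± 0.37 (limma adjusted p = 0.00564), lost without the BLT2 18 h array (0.0582). CDC25C, a phosphatase of mitotic entry, fell by 0.96 on the log2 scale (adjusted p = 0.00205) and was called in every fit that left out 1 array. CCND2, the third D-type cyclin, rose by 0.63 ± 0.13 and CDK2 fell by 0.66 (adjusted p = 0.0142 and 0.0123), both lost when the BLT2 array of 0 h or of 18 h was left out, CCND2 also without Mock 0 h and CDK2 also without Mock 18 h (up to 0.132). At 2 h, 0 of the 19 passed, where 4.62% of all tested genes were called.

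In the RB and E2F family, 2 of 16 tested genes rose at 18 h and 3 fell, where 15.0% of all tested genes were higher and 12.2% lower, so neither count stood far from those shares. The median was 0.02 and took either sign with 1 array left out (-0.043 to 0.053). When the BLT2 array of 0 h or of 18 h was left out, 1 was higher and 0 lower. RB1, which encodes the RB protein that restrains E2F1, rose to 10.54 in BLT2 and 10.75 in Mock cells, against 9.57 in BLT2 and 9.83 in Mock cells at 0 h. The change of 0.95 ± 0.11 (limma adjusted p = 0.00219) was called in every fit that left out 1 array. E2F5, which acts mainly as a repressor, fell by 0.78 (adjusted p = 0.0278, up to 0.209 when either 0 h array or the BLT2 array of 18 h was left out). At 2 h, 0 of the 16 passed, where 4.62% of all tested genes were called.

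The E2F targets that carry out S phase entry were lower at 18 h, with 14 of 28 tested genes lower and 0 higher, where 12.2% of all tested genes were lower and 15.0% higher. Their median was -0.64, and with 1 array left out it ran from -0.89 without Mock 0 h to -0.38 without BLT2 0 h. ORC1, of the origin recognition complex, was at -1.20 ± 0.24, RRM2, a subunit of ribonucleotide reductase, at -1.14 ± 0.12, and DTL, which directs destruction of a licensing factor, at -1.11 ± 0.22 (limma adjusted p = 0.0125, 0.00216 and 0.0117). The count of lower genes was 3 without the Mock 18 h array, 3 without BLT2 0 h, 2 without BLT2 18 h, and 13 to 16 without any other array. RRM2 was called in all of these fits, while ORC1 and DTL were lost without those 3 arrays (up to 0.0828). At 2 h, 0 of the 28 passed, where 4.62% of all tested genes were called. The median at 2 h was -0.18 and ran from -0.44 without Mock 0 h to 0.05 without BLT2 0 h. On calcium return against 18 h again 0 of 28 passed, where 3.34% of all tested genes were called.

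**Figure D4:**
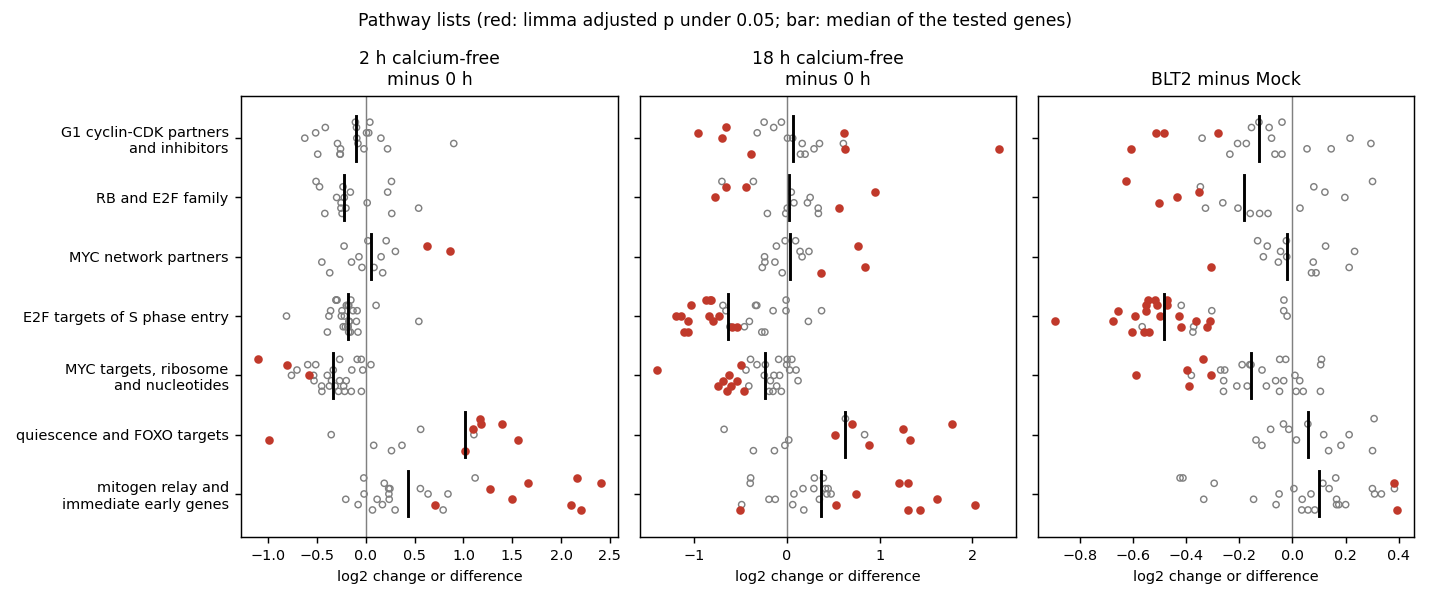
Log2 change or difference (horizontal axis) of each tested gene of 7 pathway lists (rows) in 3 comparisons, red where limma's adjusted p was under 0.05, with the median as a bar. E2F targets have medians of -0.64 at 18 h (-0.89 to -0.38 with 1 array left out) and -0.49 for BLT2 minus Mock, and quiescence and FOXO targets have a median of 1.02 at 2 h (0.37 without a signal filter).

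Between the lines, 20 of the 28 E2F targets were lower in BLT2 cells and 0 higher, where 8.13% of all tested genes were lower and 7.82% higher. Their median was -0.49. CDC6, a loader of the replication helicase, was at -0.89 ± 0.23, RRM1 at -0.68 ± 0.17 and MCM2 at -0.66 ± 0.18 (limma adjusted p = 0.0376, 0.0347 and 0.0447). The count was 2 without any one array of the 2 h, 18 h, return or 12-HHT steps and 23 without either 0 h array, and these 3 genes lost their calls in the first set (up to 0.129). The median kept its sign, at -0.59 to -0.40. The count was 11 without a signal filter and 12 with quantile normalization. The gap in the 3 named genes was wider after calcium return than at 0 h, but BLT2 was already the lower line at 2 h and 18 h. At 0 h CDC6 read 11.05 in BLT2 and 11.21 in Mock cells, RRM1 10.98 and 11.17, and MCM2 10.32 and 10.30. At 2 h CDC6 read 11.38 in BLT2 and 11.97 in Mock cells, RRM1 10.81 and 11.16, and MCM2 9.68 and 10.22. At 18 h CDC6 read 11.10 in BLT2 and 11.62 in Mock cells, RRM1 10.44 and 10.91, and MCM2 9.44 and 9.86. After return CDC6 read 9.89 in BLT2 and 11.44 in Mock cells, RRM1 9.98 and 11.11, and MCM2 8.91 and 10.03. Fitted over all steps, CCNE2 and these targets were lower in BLT2 cells, while E2F1 was at 0.24 ± 0.13 (limma adjusted p = 0.239). That mean covers an E2F1 gap that fell from 0.71 at 0 h to 0.03 after return and -0.21 with 12-HHT.

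Other G1 genes also differed between the lines. CCND2 read 11.16, 10.97, 11.87, 11.44 and 11.62 in BLT2 cells from 0 h to return with 12-HHT, against 11.73, 11.88, 12.27, 12.13 and 12.10 in Mock cells. It was lower in BLT2 cells at every step, by -0.61 ± 0.08 (limma adjusted p = 0.00589), and was called in all fits that left out 1 array. SKP2, the ubiquitin ligase subunit that targets p27 for destruction, was at -0.52 ± 0.09 (adjusted p = 0.0108) and was also called in all of them. Among these partners and inhibitors 4 of 19 genes were lower in BLT2 cells and 0 higher (2 to 5 lower with 1 array left out). In the RB and E2F family 4 of 16 were lower and 0 higher (0 to 5 lower, with 0 when either 12-HHT array was left out). Over all tested genes 8.13% were lower and 7.82% higher.

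MYC targets of ribosome and nucleotide synthesis had 3 of 29 tested genes lower and 0 higher at 2 h, where 1.98% of all tested genes were lower and 2.64% higher. At 18 h 9 were lower and 0 higher, where 12.2% of all tested genes were lower and 15.0% higher. Their median was -0.33 at 2 h and -0.23 at 18 h, and with 1 array left out -0.48 to -0.21 at 2 h, and -0.30 to -0.11 at 18 h, nearest to 0 without BLT2 0 h and without Mock 18 h. NOP2, which methylates ribosomal RNA, was at -1.10 ± 0.15 at 2 h (limma adjusted p = 0.0125), lost when the BLT2 array of 0 h or of 2 h was left out (up to 0.109). SRM, which makes spermidine, was at -1.41 ± 0.16 at 18 h (adjusted p = 0.00221) and held in every fit that left out 1 array. The 18 h count was 1 when either 18 h array or the BLT2 array of 0 h was left out and 7 to 10 otherwise. The 2 h count was 0 when the BLT2 array of 0 h or of 2 h was left out, 1 without Mock 0 h or either 18 h array, and 8 without Mock 2 h. MYC itself was at -0.02 ± 0.27 at 2 h and -0.13 ± 0.27 at 18 h (adjusted p = 0.967 and 0.776).

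In the MYC network, 2 of 14 tested genes rose at 2 h and 3 at 18 h, with 0 lower at either step (0 to 2 and 1 to 3 higher with 1 array left out). Over all tested genes 2.64% were higher at 2 h and 15.0% at 18 h, so the 18 h count was not far from that share. MXD1, which competes with MYC for the partner MAX, was at 0.63 ± 0.11 at 2 h and 0.76 ± 0.11 at 18 h (limma adjusted p = 0.0284 and 0.00446). It is counted as higher at both steps, though all its signals at 0 h, 2 h and 18 h lay below the filter level of 7.21. MXD1 passed the filter only through the BLT2 arrays after return, at 7.28 without and 7.39 with 12-HHT. At 18 h its call held whichever array was left out. At 2 h the call was kept only without the Mock 2 h array or either return array. MGA, another MAX partner, was at 0.84 ± 0.13 at 18 h (adjusted p = 0.00549, up to 0.0621 when the Mock array of 0 h or the BLT2 array of 18 h was left out).

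Quiescence and FOXO targets had 6 of 13 tested genes higher and 1 lower at 2 h, where 2.64% of all tested genes were higher and 1.98% lower, and 6 higher and 0 lower at 18 h, where 15.0% were higher and 12.2% lower. The median was 1.02 at 2 h and 0.63 at 18 h, and without a signal filter, which adds 4 genes to the list, it was 0.37 at 2 h. BTG2, an antiproliferative factor, was at 1.56 ± 0.16 at 2 h and 1.32 ± 0.16 at 18 h, and TXNIP, a thioredoxin inhibitor, at 1.39 ± 0.24 and 1.78 ± 0.24 (limma adjusted p = 0.00479, 0.00249, 0.0227 and 0.00315). Both held at 18 h in every fit that left out 1 array. At 2 h BTG2 was lost when the Mock array of 0 h or the BLT2 array of 2 h was left out (up to 0.0588), and TXNIP without any array of 0 h, 2 h or 18 h (up to 0.210). The count of higher genes was 1 to 7 at 2 h and 3 to 8 at 18 h with 1 array left out, lowest without Mock 0 h and without BLT2 18 h. TOB1, an antiproliferative relative of BTG2, was the 1 lower gene at 2 h, at -0.99 ± 0.13 (adjusted p = 0.00981), lost when either 0 h array or the BLT2 array of 2 h was left out (up to 0.119).

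Genes of mitogen relay and the immediate early response had 8 of 26 tested genes higher at 2 h, when CCND1 was at its lowest, and 0 lower, with a median of 0.43, where 2.64% of all tested genes were higher and 1.98% lower. The higher genes include EGR2, which passed the signal filter only through its 2 h arrays (7.74 in BLT2 and 9.33 in Mock cells). Its call therefore adds no support to this count. EGR1, an early target of ERK signalling, was at 2.40 ± 0.30 and ATF3, a stress and growth factor response gene, at 2.21 ± 0.14 (limma adjusted p = 0.00940 and 0.00123). ATF3 held in every fit that left out 1 array, and EGR1 was lost when any of the same 3 arrays as for TOB1 was left out (up to 0.108). The count was 4 without either 0 h array, 5 without BLT2 2 h and 8 without any other. At 18 h 8 of 26 were higher and 1 lower, where 15.0% of all tested genes were higher and 12.2% lower (4 to 9 higher with 1 array left out, lowest without Mock 0 h or BLT2 18 h), among them HBEGF, a ligand of the EGF receptor, at 1.62 ± 0.23 (adjusted p = 0.00364), which held in all of those fits.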

How the data were processed

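The deposited table holds log2 probe set signals of 10 GeneChip Canine Gene 1.0 ST arrays, the scale being read from the values (1.55 to 14.1). Affymetrix Expression Console and GCRMA, a background correction with normalization across arrays, were used per the submitters' processing notes. Versions are not given in the sources used here. After such normalization, a shift common to a whole array is removed. RNA was pooled before labelling, so p-values carry no spread between preparations, and the number of arrays limits their precision.

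Of 32391 probe sets, 16545 had 1 symbol in the platform annotation, 370 several and 15476 none. A gene was tested if its signal exceeded 7.21, the overall median, on at least 2 arrays, and 0 columns lacked a sample. Limma 3.58.1 under R 4.3.3 was fitted to all 10498 genes with line and step as additive terms. It has 4 residual degrees of freedom, and its error holds both array noise and unequal responses of the lines. BLT2 minus Mock differences were fitted alone to compare gaps after and before calcium return (3 residual degrees of freedom). Benjamini-Hochberg adjustment ran over all tested genes, with a threshold of 0.05.

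In the fit tested on simulated data of 10498 genes, the 18 h against 0 h comparison recovered 71% of planted changes of ±1 and 96% of ±2. For 2 h against 0 h these were 72% and 94%, for BLT2 minus Mock 91% and 100%, and for the change in the gap 49% and 87%.

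The members and lists were chosen with earlier results of these data known. The text names all members, for each list and comparison called genes among the 3 largest changes in each direction (not all are printed), and the 3 genes closest to each member. Alternatives were no filter, a stricter filter (75th percentile), quantile normalization, median centring, the mean of probe sets, an intensity trend, only the 4 arrays compared, no 12-HHT arrays, and each array left out.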

Additional observations from a re-analysis of the deposited data

Results flagged for a closer look

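In the members, 4 results were listed as differences between the lines. For CCNE2 the gap of BLT2 minus Mock changed by -0.52 after calcium return (limma adjusted p = 0.0473). With 1 array left out, that call was kept only without either 2 h array. The next 3 are opposite directions in the lines, with 1 array per line and step, and the difference was not tested. From 2 h to 18 h without calcium MYC moved by 0.26 in BLT2 and -0.47 in Mock cells, a difference of 0.72. From 0 h to calcium return CCNE2 moved by -0.37 in BLT2 and 0.30 in Mock cells, a difference of -0.67. Over the same steps CDKN1B moved by 0.02 in BLT2 and -0.67 in Mock cells, a difference of 0.69. Only opposite directions at least 0.58 apart on the log2 scale were listed.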

How the results depend on the processing

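Counts of called members with 1 array left out ranged over 0 to 2 (2 h against 0 h), 1 to 6 (18 h against 0 h), 0 to 3 (18 h against 2 h), 0 to 3 (return against 0 h), 1 to 2 (BLT2 minus Mock) and 0 to 2 (change in the gap between the lines). They stayed at 0 for return against 18 h and for 12-HHT. Calls over all genes ranged over 34 to 1024, 591 to 3148, 37 to 2279, 2 to 375 (return against 18 h), 40 to 1848, 575 to 1116 and 51 to 1756, and stayed at 0 for 12-HHT. The BLT2 0 h array gave the 34 and the 40, the BLT2 18 h array the 591, the 37 and the 2. For return against 0 h the members called were 2, and 1 without a filter, with median centring or on 4 arrays, 4 with the stricter filter (CDK4 and E2F1 added) and 5 with an intensity trend (CDK6 also). The change in the CCNE2 gap was called in 0 of these 3: no filter, median centring, intensity trend. Over all genes, 2 h against 0 h gave 485 calls, 309 without a filter, 312 with median centring, 298 without 12-HHT arrays and 1805 on 4 arrays. For 18 h against 0 h 2860 became 5460 on 4 arrays. Return against 18 h gave 351, and 230, 228 and 168 without a filter, without 12-HHT arrays and on 4 arrays. Return against 0 h gave 1579, and 643 on 4 arrays, and the gap gave 1190, and 607 without a filter. The error of a 4-array fit rests on 1 residual degree of freedom.

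Signs turned only for members that were not called. Quantile normalization gave 0.0192 for MYC at 2 h, 0.0096 for CDKN1B at 18 h and 0.0052 for CCNE2 on return against 0 h, and median centring gave 0.013 for CDKN1B at 18 h and -0.0056 for CCNE1 in BLT2 minus Mock. With 1 array left out, ranges that crossed 0 were -0.49 to 0.10 (E2F1, 2 h), -0.47 to 0.42 (MYC, 2 h), -0.14 to 0.37 (CCNE2, 18 h), -0.13 to 0.10 (CDKN1B, 18 h) and -0.55 to 0.34 (MYC, 18 h against 2 h). On return against 18 h they were -0.31 to 0.011 (CCNE2) and -0.63 to 0.0068 (CDKN1B), on return against 0 h -0.085 to 0.13 (CCND1) and -0.29 to 0.22 (CCNE2), and for BLT2 minus Mock -0.017 to 0.055 (CCNE1) and -0.048 to 0.00038 (CDK6). The cause was not tested. With line as a term of the fit, step changes are compared within lines, and gaps were taken between the lines at each step. No pairing by replicate was possible because every line and step has 1 array and the labels number no replicates.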

Other observations

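In a pair of CDK inhibitors that are not members the gap between the lines changed after calcium return. CDKN2B, which encodes p15, an inhibitor of CDK4 and CDK6, read 10.43 in BLT2 and 9.25 in Mock cells after return, and 10.30 in BLT2 and 9.20 in Mock cells with 12-HHT. Before the return it had read 8.86 in BLT2 and 9.51 in Mock cells at 0 h, 10.19 in BLT2 and 9.97 in Mock cells at 2 h, and 9.60 in BLT2 and 9.97 in Mock cells at 18 h, so BLT2 was the higher line at 2 h already. The change in its gap was 1.41 ± 0.24 (limma adjusted p = 0.0167). CDKN1A read 12.16 in BLT2 and 12.74 in Mock cells after return, and 12.21 in BLT2 and 12.72 in Mock cells with 12-HHT. BLT2 was its higher line at the 3 steps before, at 18 h with 12.74 in BLT2 and 12.45 in Mock cells. The change in its gap was -1.14 ± 0.22 (adjusted p = 0.0234). Both calls were lost without any one array of the 0 h, return or 12-HHT steps (up to 0.100 for CDKN2B and 0.136 for CDKN1A), and that of CDKN2B also with the mean of its probe sets (0.112).

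Of the E2F targets of S phase entry, 14 of 28 had a lower gap of BLT2 minus Mock after calcium return than before it and 0 a higher one. Their median was -0.51, and of all tested genes 2.84% were lower and 8.50% higher. CDC6 was at -1.18 ± 0.15 (limma adjusted p = 0.00828), lost without any one array of the return or 12-HHT steps (up to 0.0652). The count was 0 without any one of those arrays 1 without either 0 h array, and 5 without a signal filter.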
